A study of Mus musculus with 4 samples.

Results

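The genes described here are 37 genes of DNA replication and mitosis, 16 of S phase and 21 of the G2 phase and mitosis (G2/M), taken by name from the 54532 genes of the deposited count table. All 37 names had a row, and all 37 passed the filter on low counts that left 13479 genes for testing. They were measured by RNA sequencing of neutrophils from mouse bone marrow, of genotype WT (wild type), in 4 libraries. The 2 control libraries, DMSO 1 and DMSO 2, came from cells given DMSO, a solvent. In the 2 treated libraries, Aβ40 1 and Aβ40 2, cells had 20 µg/ml of Aβ40 for 4 h, an amyloid-beta peptide that deposits in vessel walls in cerebral amyloid angiopathy. The sources used here do not give the strain, sex and age of the mice, the exposure time of the controls or the purity of the cells. Nor do they say whether a group's libraries were made from different mice, so each p-value covers the spread between these libraries alone, and that spread may be technical. The series' text names the mechanism by which Aβ40 leads to neutrophil extracellular traps as its question, and the comparison here is Aβ40 against DMSO.

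Mature neutrophils have left the cell cycle. The cells that divide in the marrow are their precursors (myeloblasts, promyelocytes and myelocytes) and the precursors of red cells, B cells and other lineages. Ahead of S phase, E2F transcription factors switch on genes for loading the MCM helicase at replication origins, for copying DNA and for making deoxynucleotides. In G2 and mitosis, a second set, bound by B-MYB, FOXM1 and the MuvB core at a promoter element called CHR (cell cycle genes homology region), often beside CCAAT boxes bound by NF-Y, supplies cyclins, mitotic kinases, spindle and kinetochore proteins. Transcripts of both sets are low in cells that do not divide. In bulk RNA, fewer cells of a type and less RNA per cell cannot be told apart.

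The promoters are shown first. The rule that chose the genes used their names, not their sequence. Genes of these functions are known for E2F or CHR control, as described above. High shares of these motifs were therefore likely beforehand. RefSeq promoters (build GRCm38.p6, the assembly that mm10 names) of 300 bases, 250 before and 50 after a transcript start, were found for 31 of the 37 genes, 14 of S phase and 17 of G2/M. Mcm4, Gins2, Ccna2, Aurkb, Tpx2 and Stmn1 had no entry. Mcm7 and Uhrf1 had 2 promoters each, and a gene counted where either matched. The motifs were searched on both strands: TTTCCCGC, TTTGGCGC, TTTCGCGC and TTTGCCGC for E2F, TTTGAA and TTCGAA for CHR, and CCAAT. An E2F match lay in 7 of 14 S phase promoters (50.0%) and in 1 of 17 G2/M promoters (5.88%), that of Cdk1, against 4.65% of the 9674 tested genes with a promoter in the table. A CHR match lay in 13 of 17 G2/M promoters (76.5%) and in 2 of 14 S phase promoters (14.3%), against 17.2% of the tested genes. The CCAAT box was in 15 of 17 G2/M promoters (88.2%) and 9 of 14 S phase promoters (64.3%), against 43.3%. A match is a run of letters, not a bound site.

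**Figure D1:**
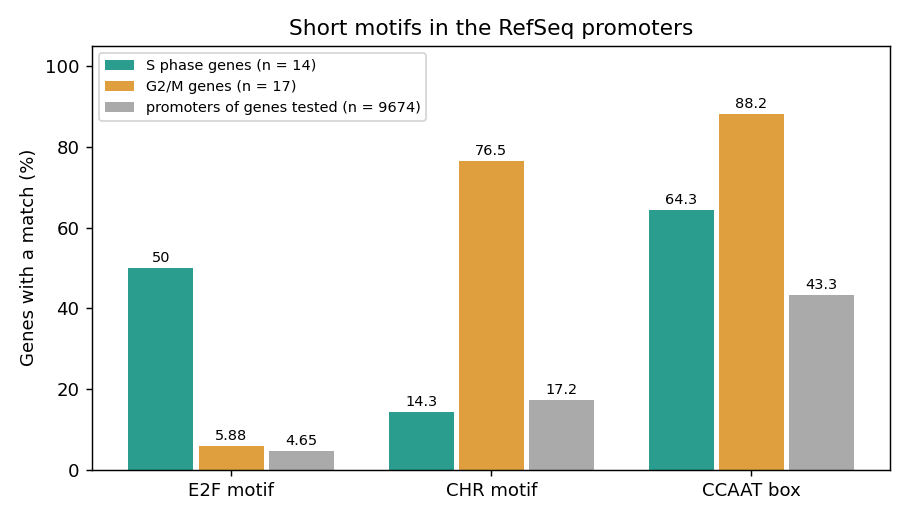
Share of genes (vertical axis, percent) whose RefSeq promoter of 300 bases holds an E2F motif, a CHR motif or a CCAAT box, for 14 S phase genes, 17 G2/M genes and 9674 tested genes. E2F matches stand at 50.0% in the S phase genes and CHR matches at 76.5% in the G2/M genes, against 4.65% and 17.2% of the tested genes.

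The 7 promoters below give the 120 bases before the transcript start, 5′ to 3′ on the gene's strand, in lower case with every E2F, CHR and CCAAT match of either strand in capitals. ATTGG is a CCAAT box on the other strand and TTCAAA a CHR on the other strand. They are chosen examples, among them genes with the highest level or the widest difference below, and do not show how common an arrangement is. In Aurka, Bub1, Cenpa, Cenpf and Plk1, for example, the only CHR match lay after the start, outside these 120 bases. Mcm6 (chr1:128359706-128359825, minus strand) is a helicase gene with E2F matches, of which a pair overlaps on opposite strands. Pcna (chr2:132253181-132253300, minus strand), with the highest S phase level, has 1 CCAAT box and no E2F match in these letters. Tyms (chr5:30073626-30073745, minus strand), with the widest S phase difference, has no match to any of the 3 motifs in its 300 bases.
Mcm6: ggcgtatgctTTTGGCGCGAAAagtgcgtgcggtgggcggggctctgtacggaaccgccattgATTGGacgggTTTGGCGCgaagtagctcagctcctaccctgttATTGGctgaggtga
Pcna: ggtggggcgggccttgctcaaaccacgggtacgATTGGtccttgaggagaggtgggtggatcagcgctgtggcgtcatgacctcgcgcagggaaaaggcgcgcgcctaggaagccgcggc
Tyms: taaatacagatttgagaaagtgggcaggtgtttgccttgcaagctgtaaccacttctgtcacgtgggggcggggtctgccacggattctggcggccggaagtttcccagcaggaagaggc
Cdk1 (chr10:69352913-69353032, minus strand), Top2a (chr11:99024190-99024309, minus strand), Cdc20 (chr4:118437344-118437463, minus strand) and Ube2c (chr2:164769809-164769928, plus strand) are G2/M genes with a CHR within 30 bases of the start and CCAAT boxes upstream. The last CHR in these letters begins at base -15 in Cdk1, -23 in Top2a, -18 in Cdc20 and -29 in Ube2c, counted back from the start.
Cdk1: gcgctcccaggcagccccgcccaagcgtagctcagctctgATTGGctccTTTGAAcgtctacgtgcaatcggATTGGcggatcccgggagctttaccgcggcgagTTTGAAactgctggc
Top2a: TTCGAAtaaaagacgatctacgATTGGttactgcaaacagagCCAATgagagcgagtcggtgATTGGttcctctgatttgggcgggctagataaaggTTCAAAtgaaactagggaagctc
Cdc20: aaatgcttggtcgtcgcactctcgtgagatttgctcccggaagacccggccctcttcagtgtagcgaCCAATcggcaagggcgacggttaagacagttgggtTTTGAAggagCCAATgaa
Ube2c: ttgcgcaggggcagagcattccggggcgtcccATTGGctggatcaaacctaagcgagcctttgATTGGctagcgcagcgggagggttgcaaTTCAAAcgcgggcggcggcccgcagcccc

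Cdk1 and Top2a were among the highest of the G2/M genes in the difference between groups reported below, and Cdc20 and Ube2c among the lowest. The 13 G2/M genes with a CHR match ran from -0.77 to 0.38 on the log2 scale, with a median of 0.02, and the 4 without one (Birc5, Ccnb1, Cenpe and Nusap1) had a median of 0.13. Among S phase genes the median was 0.16 for the 7 with an E2F match and 0.23 for the 7 without. Genes with and without an element thus overlapped in their difference between Aβ40 and DMSO, and the elements' part in it was not tested.

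Replication and mitosis transcripts were present at sizeable levels in all 4 libraries. Counts of the 37 genes ran from 185 to 11238 in a library, where total counts ran from 17212264 to 19524125 and 1 count stood for 0.0523 to 0.0585 CPM (counts scaled to a common library size, with TMM factors). The 37 genes together took 0.504% and 0.476% of all counts in DMSO 1 and 2, and 0.502% and 0.517% in Aβ40 1 and 2. Compared per gene length as deposited FPKM (fragments scaled to gene length and library size), mean levels over the 4 libraries ran from 3.54 for Gins2 to 222 for Pcna in S phase, and from 3.45 for Cenpf to 166 for Stmn1 in G2/M. The medians were 20.8 FPKM for the S phase genes and 29.2 FPKM for the G2/M genes. Pcna, the sliding clamp of DNA polymerases, stood above 98.1% of the tested protein-coding genes, and Gins2, a subunit of the replicative helicase complex, above 45.2%.

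The order of levels was clear only in part. Neighbours counted as apart where the lowest of the 4 libraries of the higher gene exceeded the highest of the lower gene. Of 15 neighbouring pairs in the S phase order, 6 were apart, among them Pcna over Rrm2, Mcm6 over Mcm3, Mcm7 over Mcm4 and Cdc6 over Gins2. Of 20 neighbouring pairs in the G2/M order 4 were apart, Stmn1 over Birc5, Kif11 over Tpx2, Plk1 over Cenpe and Bub1b over Cenpf. The ranges of the other neighbours overlapped, though some, such as Tk1 over Mcm2 and Tpx2 over Bub1, kept their order within each library. The order of Birc5, Ccnb2, Ube2c, Nusap1 and Mki67 changed between libraries and was not fixed by these data.

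**Figure D2:**
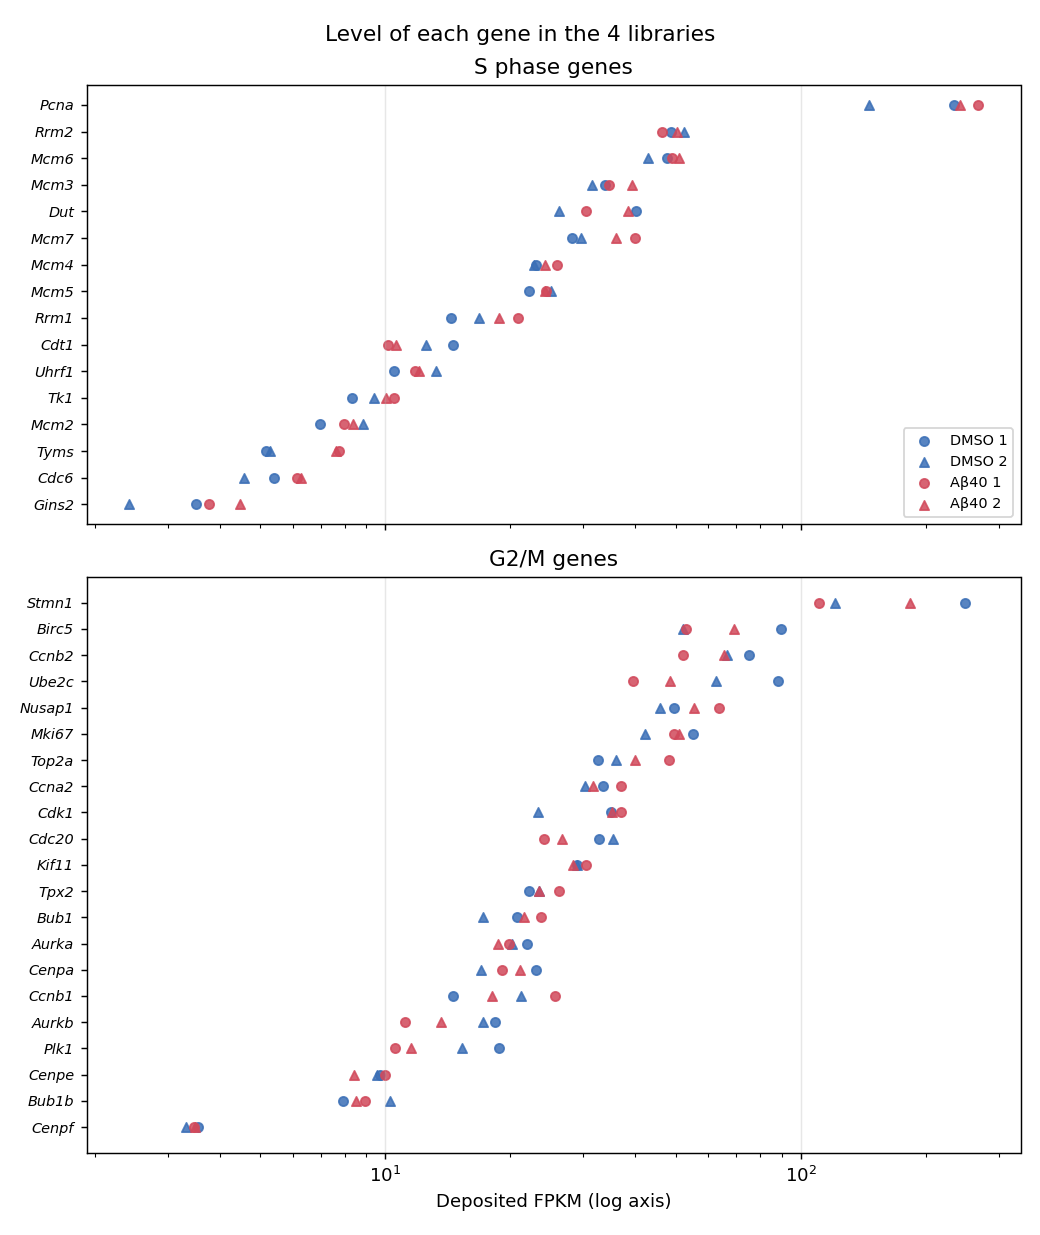
Deposited FPKM (horizontal log axis) of each S phase gene and each G2/M gene in the 4 libraries, ordered by mean level. Circles and triangles are replicates 1 and 2, blue for DMSO and red for Aβ40. Pcna and Stmn1 stand highest in their groups, with means of 222 and 166 FPKM, and both spread widely between libraries.

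The cells carried transcripts of neutrophils and of their dividing precursors in each library. S100a9, the most abundant of the mature neutrophil markers on average, ran from 27539 to 48046 CPM, and Ly6g, a neutrophil surface marker, from 271 to 400 CPM. Elane, the elastase gene that is transcribed in promyelocytes, ran from 1054 to 1203 CPM. All 10 genes of the early precursor list were counted in every library. Markers of other lineages were counted too. The 15 precursor B cell markers summed to between 184 and 187 CPM with DMSO and between 518 and 544 CPM with Aβ40, and 15 erythroid markers were counted in every library.

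None of the 37 genes was called in the comparison of Aβ40 with DMSO. In the edgeR quasi-likelihood test with Benjamini-Hochberg adjustment over all genes, 17 of 13479 genes (0.126%) had an adjusted p under 0.05, all higher with Aβ40, and 0 of 37 members did. The lowest adjusted p was 0.324 in S phase (Tyms) and 0.281 in G2/M (Ube2c). DESeq2, limma-voom and edgeR's likelihood ratio test also called 0 members. At an unadjusted p under 0.05, 2 members were on the higher side (Tyms and Mcm7) and 4 on the lower side (Ube2c, Plk1, Aurkb and Cdc20), that is 5.41% and 10.8% of the 37, where 6.51% and 5.72% of all tested genes were. The 95% confidence intervals of the 37 log2 fold changes (Aβ40 minus DMSO) lay between -1.25 and 1.07. In counts simulated for the 13479 genes, 28.4% of 2-fold changes and 98.8% of 4-fold changes above 5 CPM were called. At that setting most 2-fold changes would be missed. The simulation gave every gene the same dispersion (0.044), while the real DMSO pair differed more than the Aβ40 pair. These shares are thus not the power of this comparison.

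As groups, the S phase genes stood slightly above 0 and the G2/M genes were spread on both sides. Of 16 S phase genes 14 lay above 0 on the log2 scale (median 0.18), and of 21 G2/M genes 11 did (median 0.02). Over all tested genes 51.1% were positive, with a median of 0.01. The pair of Aβ40 libraries was above the DMSO pair for 10 S phase genes (62.5%) and 5 G2/M genes (23.8%), as for 23.2% of all tested genes. It was below for 1 S phase gene (6.25%) and 6 G2/M genes (28.6%), as for 21.9% of all tested genes. These G2/M shares are near those of all genes. At an unadjusted p under 0.05 in edgeR, 4 of 21 G2/M genes (19%) were lower and 0 higher. Of 16 S phase genes 2 (12.5%) were higher and 0 lower. Over all tested genes 6.51% were higher and 5.72% lower. Whether the S phase and G2/M genes differ was not tested. The mean log2 CPM of the S phase genes was 6.29 and 6.23 in DMSO 1 and 2, and 6.45 and 6.47 in Aβ40 1 and 2. That of the G2/M genes was 6.91, 6.73, 6.76 and 6.77 in the same order, where DMSO 1 alone was high. Summed FPKM of the S phase genes over that of the G2/M genes was 0.587 and 0.643 in DMSO 1 and 2, and 0.848 and 0.745 in Aβ40 1 and 2, a ratio in which Pcna and Stmn1 weigh most.

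**Figure D3:**
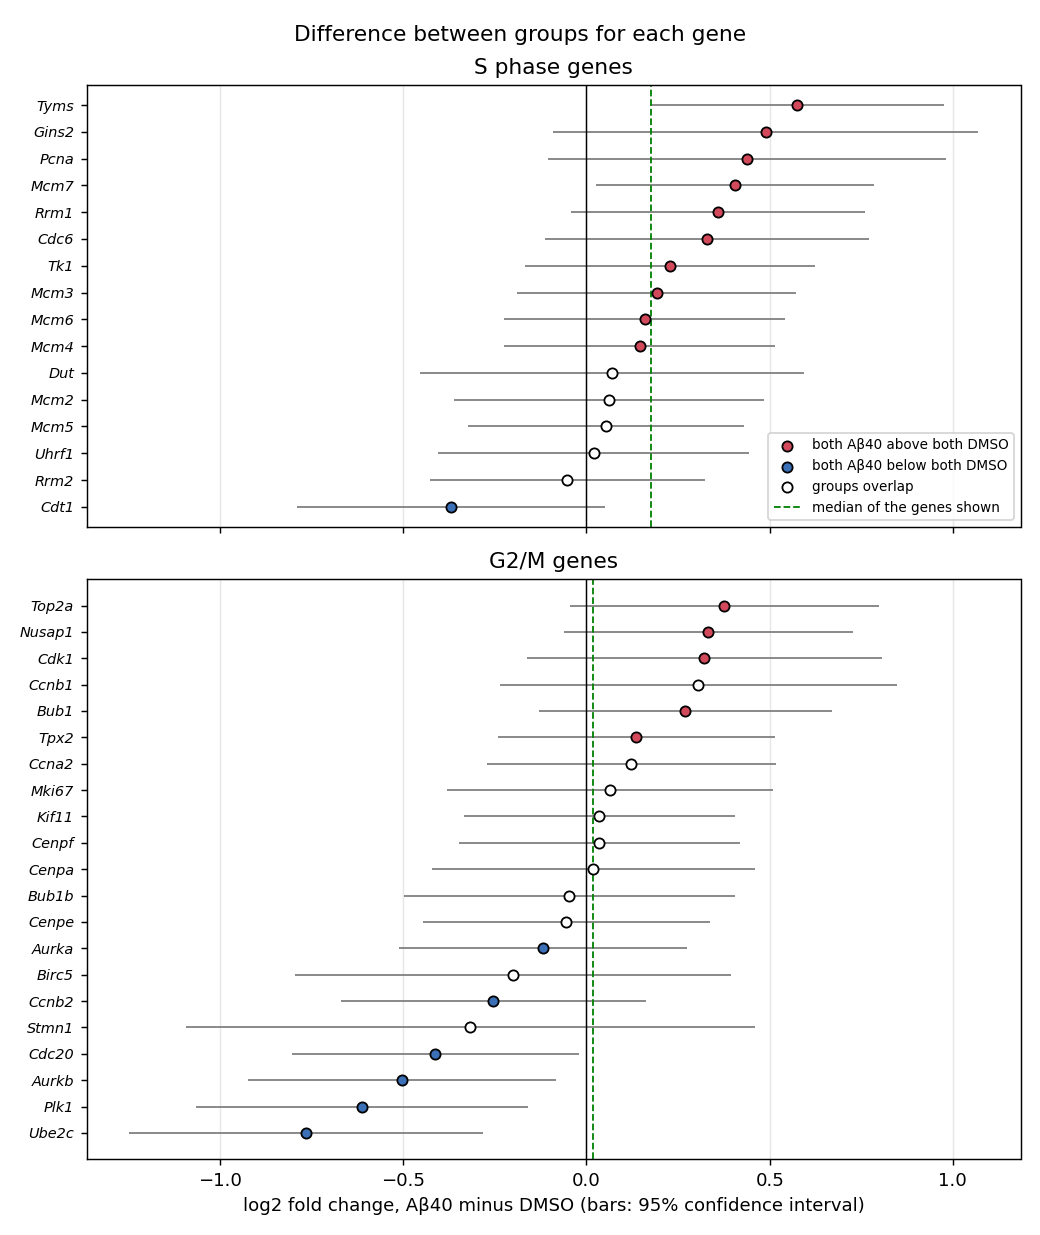
Log2 fold change (Aβ40 minus DMSO, horizontal axis) of each S phase gene and each G2/M gene with its 95% confidence interval. Red and blue points mark genes whose Aβ40 libraries both lie above or both below the DMSO libraries, white points genes whose groups overlap, and the dashed line the median of 0.18 for S phase and 0.02 for G2/M. Tyms lies farthest from 0 among the S phase genes, and Ube2c among the G2/M genes.

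The 6 MCM genes, whose products form the ring-shaped helicase that unwinds DNA at the fork, all had positive log2 fold changes, from 0.05 (Mcm5) to 0.41 (Mcm7), with a median of 0.15. Their summed level was 162 and 161 FPKM in DMSO 1 and 2, and 182 and 183 FPKM in Aβ40 1 and 2. Mcm7 was at 125 and 132 CPM in DMSO 1 and 2, and 179 and 161 CPM in Aβ40 1 and 2, a log2 fold change of 0.41 (SE 0.17; adjusted p = 0.388 in edgeR). Its groups did not overlap, but its span also holds Cops6 and Ap4m1 on the opposite strand, and its counts may include theirs. Tk1, Gins2 and Ccna2 likewise overlap Afmid, Gse1 and Exosc9. Pseudogenes of Mcm7, Ccnb1, Ccnb2 and Ube2c have rows of their own, and how reads that fit both copies were counted is not stated. Mcm6 was at 223 and 201 CPM with DMSO and 233 and 241 CPM with Aβ40 (log2 fold change 0.16, SE 0.17). Mcm3 was at 128 and 119 CPM with DMSO and 132 and 149 CPM with Aβ40 (log2 fold change 0.19, SE 0.17). For both the groups did not overlap, and the difference was about as large as its standard error. Mcm4 also had groups that did not overlap, at 0.14 (SE 0.16), while those of Mcm2 at 0.06 (SE 0.19) and Mcm5 overlapped.

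The MCM ring is loaded by Cdc6 and Cdt1, and the GINS complex, with its subunit Gins2, joins it when an origin fires. These 3 genes did not share a direction. Cdt1 was at 45.8 and 39.5 CPM in DMSO 1 and 2, and 32.5 and 33.6 CPM in Aβ40 1 and 2, a log2 fold change of -0.37 (SE 0.19; edgeR adjusted p = 0.454). It was the 1 S phase gene with both Aβ40 libraries below both DMSO libraries. Gins2 was at 14.4, 9.95, 15.7 and 18.5 CPM in the same order, a log2 fold change of 0.49 (SE 0.26), and DMSO 2 was the low library. Cdc6 was at 0.33 (SE 0.20), with Aβ40 above. Gins2 was called higher without DMSO 1 (adjusted p = 0.0471), when 8.93% of all genes were called and the lone DMSO library was assumed to vary like the others.

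Pcna was at 563 and 353 CPM in DMSO 1 and 2, and 653 and 588 CPM in Aβ40 1 and 2, a log2 fold change of 0.44 (SE 0.24; edgeR adjusted p = 0.490). DMSO 2 stood well below the other 3 libraries. Without DMSO 1 the log2 fold change was 0.81 and Pcna was called (adjusted p = 0.000759), and without DMSO 2 the difference was 0.13. Uhrf1, which carries DNA methylation over to new strands, was at 44.9 and 56.7 CPM with DMSO and 51.1 and 51.9 CPM with Aβ40, and its groups overlapped (log2 fold change 0.02, SE 0.19).

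Among enzymes of deoxynucleotide supply, Tyms, thymidylate synthase, had the lowest p-value of the S phase genes. It was at 31.6 and 32.2 CPM in DMSO 1 and 2, and 48.0 and 47.0 CPM in Aβ40 1 and 2, a log2 fold change of 0.57 (SE 0.18; edgeR adjusted p = 0.324). Both pairs were tight, and the value stayed between 0.56 and 0.58 whichever library was left out. Rrm1, the large subunit of ribonucleotide reductase, was at 159 and 186 CPM with DMSO and 233 and 209.7 CPM with Aβ40 (log2 fold change 0.36, SE 0.18). Rrm2, its small subunit, whose level is tied to S phase, was at 136 and 146 CPM with DMSO and 131 and 141 CPM with Aβ40 (log2 fold change -0.05, SE 0.17), with interleaved groups. The subunits of 1 enzyme thus lay on either side of 0. Tk1, thymidine kinase, was at 0.23 (SE 0.18). Dut, which clears dUTP, was at 97.0 and 63.3 CPM in DMSO 1 and 2, and 74.6 and 93.7 CPM in Aβ40 1 and 2 (log2 fold change 0.07, SE 0.23), so each group held a high and a low library.

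In G2/M, the cyclins and kinases that drive entry into mitosis lay on both sides of 0, 3 positive and 4 negative. Cdk1, the mitotic kinase, was at 173 and 116 CPM in DMSO 1 and 2, and 186 and 175 CPM in Aβ40 1 and 2, a log2 fold change of 0.32 (SE 0.21; edgeR adjusted p = 0.574). DMSO 1 was close to the Aβ40 libraries, and DMSO 2 was low. Without DMSO 1, Cdk1 was called higher at 0.64 (adjusted p = 0.0126), and without DMSO 2 the value was 0.05. Its partners differed from each other. Ccnb1, cyclin B1, was at 61.5 and 89.7 CPM with DMSO and 109.7 and 77.2 CPM with Aβ40 (log2 fold change 0.31, SE 0.24), with overlapping groups. It was called higher without DMSO 2, at 0.59 (adjusted p = 0.0382). Ccnb2, cyclin B2, was at 116 and 102 CPM with DMSO and 81.1 and 101 CPM with Aβ40 (log2 fold change -0.25, SE 0.18). Ccna2, cyclin A2, was at 0.12 (SE 0.17).

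Plk1, the polo-like kinase of mitosis, and Aurkb, the kinase of the chromosomal passenger complex, were among the lowest. Plk1 was at 41.5 and 33.8 CPM in DMSO 1 and 2, and 23.6 and 25.6 CPM in Aβ40 1 and 2, a log2 fold change of -0.61 (SE 0.20; edgeR adjusted p = 0.331). Without DMSO 2, when 7.16% of all genes were called, Plk1 was called lower at -0.76 (adjusted p = 0.0122). Aurkb was at 54.2 and 51.0 CPM in DMSO 1 and 2, and 33.5 and 40.6 CPM in Aβ40 1 and 2, a log2 fold change of -0.50 (SE 0.19; edgeR adjusted p = 0.351). In both genes the 2 groups were apart. Aurka, the spindle pole kinase, was at -0.12 (SE 0.17). Birc5, survivin, is a partner of Aurkb, and was at 306 and 179 CPM in DMSO 1 and 2, and 184 and 238 CPM in Aβ40 1 and 2 (log2 fold change -0.20, SE 0.26). Its high library was DMSO 1, and its value turned from -0.55 without DMSO 2, where it was called (adjusted p = 0.0343), to 0.24 without DMSO 1.

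Exit from mitosis is set off by the anaphase-promoting complex, an ubiquitin ligase that Cdc20 activates and that Ube2c supplies with ubiquitin. Ube2c had the widest difference of the 37. It was at 231 and 164 CPM in DMSO 1 and 2, and 104 and 128 CPM in Aβ40 1 and 2, a log2 fold change of -0.77 (SE 0.21; 95% confidence interval from -1.25 to -0.28; edgeR adjusted p = 0.281). The groups did not overlap. Ube2c was called lower without a filter on low counts (adjusted p = 0.0182), when 1.17% of all genes were called, and without DMSO 2 (adjusted p = 3.82e-06). Without DMSO 1 its value was -0.50 and was not called. Cdc20 was at 61.5 and 66.2 CPM with DMSO and 45.7 and 50.3 CPM with Aβ40 (log2 fold change -0.41, SE 0.17; edgeR adjusted p = 0.391), and Elovl1, which overlaps it on the opposite strand, may share its reads. The spindle checkpoint kinases that hold Cdc20 back did not follow it. Bub1 was at 0.27 (SE 0.18) and Bub1b at -0.05 (SE 0.20).

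Genes of chromosome structure and of the spindle were mostly at or above 0. Exceptions were Birc5 (-0.20), Stmn1 (-0.32) and Cenpe (-0.06), and the spindle pole kinase Aurka (-0.12) if counted here. Top2a, the topoisomerase that untangles sister DNA, was at 294 and 326 CPM in DMSO 1 and 2, and 441 and 364 CPM in Aβ40 1 and 2, a log2 fold change of 0.38 (SE 0.19; edgeR adjusted p = 0.450). Nusap1, a microtubule-bundling protein, was at 202 and 188 CPM with DMSO and 263 and 227 CPM with Aβ40 (log2 fold change 0.33, SE 0.17). Nusap1 overlaps Oip5 on the opposite strand. Mki67, the coat protein of mitotic chromosomes known as the Ki-67 antigen, was at 556 and 426 CPM in DMSO 1 and 2, and 508 and 518 CPM in Aβ40 1 and 2 (log2 fold change 0.06, SE 0.20). The 2 Aβ40 libraries lay between the DMSO libraries. The spindle motor Kif11 was at 0.04 (SE 0.16) and Tpx2, which nucleates spindle microtubules, at 0.14 (SE 0.17). The kinetochore genes Cenpa, Cenpe and Cenpf ran from -0.06 to 0.03, with overlapping groups in all 3.

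Stmn1, stathmin, which takes microtubules apart and is not limited to dividing cells, varied most within a group. It was at 482 and 234 CPM in DMSO 1 and 2, and 217 and 358 CPM in Aβ40 1 and 2 (log2 fold change -0.32, SE 0.34). Each group thus held a high and a low library. Its value was -0.76 without DMSO 2, where it was called lower (adjusted p = 0.00149), and 0.29 without DMSO 1.

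The members varied between libraries of the same group, though less than tested genes at large. The median absolute log2 ratio of DMSO 2 to DMSO 1 was 0.18 for the members and 0.31 for all tested genes. For Aβ40 2 to Aβ40 1 it was 0.13 and 0.21, and the median absolute log2 fold change between groups was 0.23 and 0.28. Among protein-coding genes of at least 5 CPM, a mean level that all members exceeded, these medians were 0.26, 0.17 and 0.23. The difference between groups was thus about as wide in the members as in these genes. DMSO 2 was below DMSO 1 for 8 of 16 S phase genes and 15 of 21 G2/M genes. The absolute log2 ratio of DMSO 2 to DMSO 1 exceeded the absolute log2 fold change between groups in 17 of the 37. The lowest of the 4 libraries was DMSO 2 for 15 members, DMSO 1 for 11, Aβ40 1 for 8 and Aβ40 2 for 3. Within the DMSO pair the ratios ran lowest for Stmn1 (-1.04), Birc5 (-0.78), Pcna (-0.68) and Dut (-0.61) on the log2 scale, and highest for Ccnb1 (0.54). Within the Aβ40 pair, Stmn1 was at 0.72 and Ccnb1 at -0.50, the opposite signs.

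**Figure D4:**
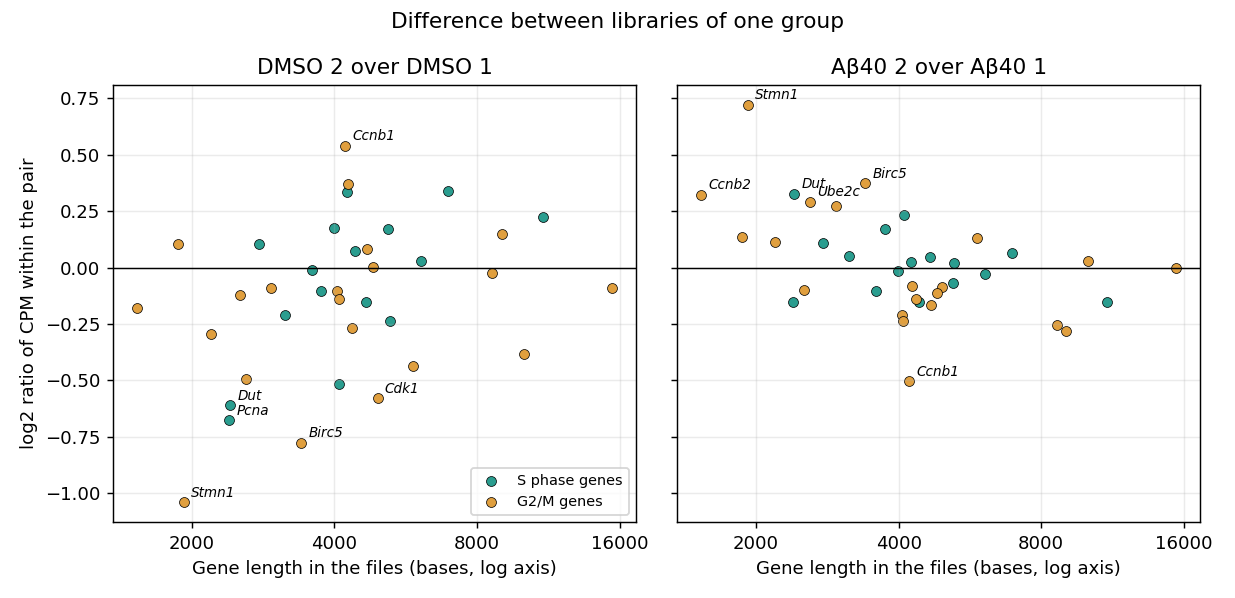
Log2 ratio of CPM between the libraries of a group (vertical axis) against gene length in the files (horizontal log axis, bases) for the 16 S phase and 21 G2/M genes, with DMSO 2 over DMSO 1 on the left and Aβ40 2 over Aβ40 1 on the right. Stmn1 is lowest on the left, at -1.04, and highest on the right, at 0.72.

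Gene length moved with these ratios. Across the 37 genes Spearman's rho with length was 0.34 for DMSO 2 over DMSO 1, -0.48 for Aβ40 2 over Aβ40 1 and 0.48 for the log2 fold change between groups. Over all tested genes the same 3 values were 0.22, -0.05 and -0.15. These are descriptions across genes that share the same 4 libraries. Of the 15 members under 4000 bases 10 were below 0 (median -0.20), and of the 22 longer members 2 were (Cenpe and Bub1b; median 0.19). The limit was chosen after the values were seen. Among other protein-coding genes of at least 5 CPM the order was the other way, with 43.7% negative under 4000 bases and 57.7% above. Ube2c, Plk1, Aurkb, Cdc20 and Stmn1 are all among the shorter members, and the part of length in their values was not tested.

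Among other genes of the same pathways 0 were called in each list by edgeR's quasi-likelihood test. Of 45 other replication genes, 34 lay above 0 on the log2 scale (median 0.23), and at an unadjusted p under 0.05 there were 10 on the higher side (22.2%) and 0 on the lower, against 6.51% and 5.72% of all tested genes. The Aβ40 pair was above the DMSO pair for 22 of them (48.9%) and below for 1 (2.22%), against 23.2% and 21.9% of all tested genes. Slbp, which binds histone messages in S phase, and Rfc2, of the clamp loader, were the most abundant, at 0.28 (SE 0.21) and -0.07 (SE 0.18). Orc1, of the origin recognition complex, was farthest from 0, at 2.68 and 2.53 CPM with DMSO and 5.32 and 5.02 CPM with Aβ40 (log2 fold change 0.99, SE 0.35; edgeR adjusted p = 0.342). Of 48 other mitosis genes, 33 were positive, with a median of 0.12, and groups were apart for 11 above (22.9%) and 9 below (18.8%), near the shares of all genes, with 3 on either side at an unadjusted p under 0.05. The chromatin protein gene Hmgb2 was at 0.22 (SE 0.27) and the condensin gene Smc4 at 0.39 (SE 0.19). Espl1, separase, the protease that the anaphase-promoting complex releases, was at 24.1 ± 2.98 CPM (SD, n = 2) with DMSO and 14.1 ± 1.70 CPM with Aβ40 (log2 fold change -0.77, SE 0.22; edgeR adjusted p = 0.293). The numbers of these lists are set beside those of the members without a test of any difference.

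Regulators upstream of the members lay mostly below 0. Of 19 E2F, RB and DREAM genes 14 were negative (median -0.08), 0 were called by edgeR, and at an unadjusted p under 0.05 there were 0 on the higher and 2 (10.5%) on the lower side. Groups were apart for 2 above (10.5%) and 6 below (31.6%), against 23.2% and 21.9% of all tested genes. E2f7, a repressor of the family, was at 15.7 ± 1.86 CPM (SD, n = 2) with DMSO and 9.27 ± 0.947 CPM with Aβ40 (log2 fold change -0.76, SE 0.24; edgeR adjusted p = 0.325). Tfdp1, the dimer partner of E2F proteins, was at -0.08 (SE 0.17) and Rb1, the retinoblastoma gene, at 0.12 (SE 0.16). The 11 tested G1 cyclins, CDKs and MYC genes had a median of 0.03, with Ccnd3 at -0.17 (SE 0.25), Cdk2 at -0.29 (SE 0.18) and Skp2 at 0.51 (SE 0.26). The 12 tested CDK inhibitors and genes of cell cycle exit had a median of -0.03. Mxd1, a MYC antagonist that is high in mature neutrophils, was at 1360 and 1816 CPM with DMSO and 1159 and 1092 CPM with Aβ40 (log2 fold change -0.50, SE 0.21; edgeR adjusted p = 0.396), and Btg1 at -0.11 (SE 0.18).

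Markers of the marrow cells that could hold these transcripts differed in their values. Early neutrophil precursor markers had a median log2 fold change of 0.08 over 10 genes, with sums of 6956 and 6249 CPM with DMSO and 6993 and 6851 CPM with Aβ40. Late precursor markers had a median of 0.18 over 9 genes and mature neutrophil markers of 0.15 over 13, with 0 called in these 3 lists by edgeR and, at an unadjusted p under 0.05, 1, 0 and 1 on the higher side and 0, 0 and 2 on the lower. The most abundant genes of the early list were the granule proteoglycan gene Srgn, at 0.19, and Elane, at -0.03. Ctsg, cathepsin G, was at 0.59. Srgn alone gave 3127 and 2761 CPM of the early sums with DMSO and 3624 and 3070 CPM with Aβ40. Whether it is limited to early precursors was not tested. Of the granule protein genes Ngp and Lcn2 the values were 0.18 and 0.12, and Orm1 was at 0.56. Of mature markers S100a9 was at 0.38, S100a8 at 0.23 and Csf3r, the G-CSF receptor, at -0.61. Erythroid markers had a median of -0.03 over 13 tested genes, and their sum was 5289 and 2340 CPM in DMSO 1 and 2, and 3809 and 3902 CPM in Aβ40 1 and 2, with DMSO 2 lowest. The globin genes Hbb-bs and Hba-a1 were at -0.04 and -0.03 and Hba-a2 at 0.71. Stem and progenitor markers had a median of 0.09 over 9 genes, with Myb at 0.13, Kit at -0.25 and Ctla2a at 0.92. All 15 precursor B cell markers were positive, with a median of 1.62 and 4 called (Vpreb1, Vpreb3, Cd79a and Cd79b). Vpreb1, of the surrogate light chain of dividing precursor B cells, rose from 3.48 and 3.98 CPM with DMSO to 15.1 and 15.4 CPM with Aβ40 (log2 fold change 2.03, SE 0.26; edgeR adjusted p = 0.0341). Eosinophil markers had a median of 1.19 over 9 genes, with Ear6 called. T and NK cell markers had a median of 1.31 over 11, all positive, with Gzmb called, but several were barely counted. That median was the value of Cd4, at 0.0536 and 1.08 CPM in DMSO 1 and 2 (SE 1.02), with overlapping groups. The most abundant of the 11, Nkg7, Klrd1 and Gzmb, were at 0.18, 0.60 and 1.54. Monocyte and macrophage markers had a median of 0.43 over 11, and megakaryocyte and platelet markers of -0.15 over 5. Among the last 2 lists Ly6c2 was at 0.43, Ccr2 at 0.09, C1qb at 1.62, Pf4 at -0.15, Itga2b at -0.04 and Ppbp at -0.24. Among the markers with a row, Mecom and Ncr1 were at 0 in at least 1 library, and no marker was at 0 in all. The part of these cells in the levels of the S phase and G2/M genes was not tested.

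**Figure D5:**
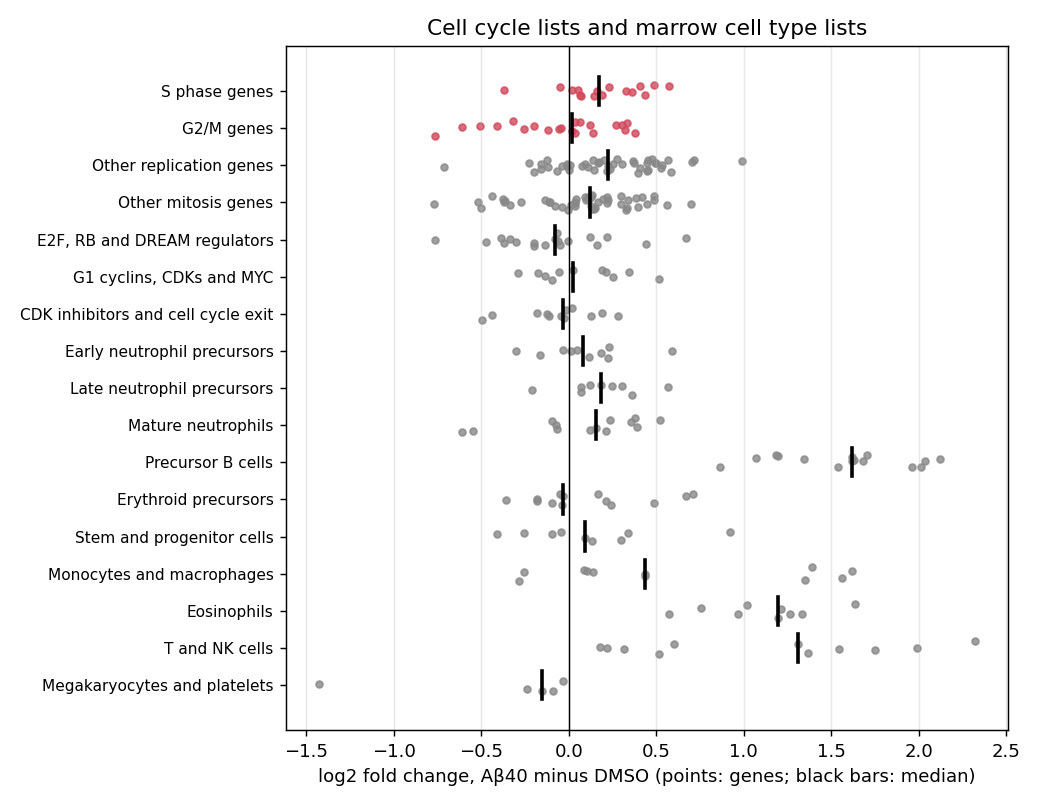
Log2 fold change (Aβ40 minus DMSO, horizontal axis) of every tested gene of the S phase and G2/M groups (red) and of the other lists (grey), with each list's median as a black bar. The S phase and G2/M medians are 0.18 and 0.02, and that of the precursor B cell markers is 1.62.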

How the data were processed

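RNA of 4 libraries was sequenced, 2 from DMSO and 2 from Aβ40. Build mm10, featureCounts 1.5.0-p3 and HISAT2 2.0.5 are listed, without role or order, in the submitters' processing notes. Strandedness, annotation release and filters are not in those notes and not given in the sources used here. The authors deposited raw counts per gene, tested as they are, and FPKM, used for levels between genes. Counts divided by length differed from the deposited FPKM by 1 constant factor per library.

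Counts were fitted in R 4.3.3 with edgeR 4.0.16 (filterByExpr, TMM scaling, glmQLFit and glmQLFTest, group alone, 2-sided), and p-values were adjusted by Benjamini-Hochberg over 13479 genes, with calls under 0.05. The fit had 2 residual and 6.88 prior degrees of freedom, with a common biological coefficient of variation of 0.210. Standard errors come from the same statistic. It was tested on simulated counts. The libraries of a pair differed by more than counting noise (chi-square per degree of freedom 51.4 for DMSO, 15.6 for Aβ40).

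The members and lists were chosen with earlier results of these data known. Of 289 list entries 2 had no row (Sgol1 and Sgol2a). Library values are given for the 6 members of each phase with the highest FPKM, the 3 highest and the 3 lowest in log2 fold change, and a few others chosen after their values were seen (among them Cdc20 and Ccnb1). Of other lists the called genes are named, or the 2 most abundant and the 1 farthest from 0. Ly6g was chosen after their values were seen. Alternatives were other scalings, filters and tests (DESeq2 1.42.0, limma 3.58.1), protein-coding genes only, log2(FPKM + 1) and log2(FPKM + 0.1), the replicate number as a block, and leaving out each library.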

Additional observations from a re-analysis of the deposited data

How the results depend on the processing

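The count of called members was 0 of 16 S phase and 0 of 21 G2/M genes in all but 3 of 16 alternatives (no filter, without DMSO 1 and without DMSO 2), to which the crossed numbers given below are a further exception. There was 1 G2/M call with no filter beyond 1 count in all, and leaving out a library gave between 0 and 2 S phase calls and between 0 and 5 G2/M calls. With a library left out its group has 1 library, assumed to vary like the other group. Over all genes the share called was 1.17% with no filter, against 0.126% in the comparison above. That share was higher still without DMSO 1 and without DMSO 2, so the member calls there stand against a raised background. The S phase median was positive in every alternative, from 0.13 with library size only (scaling by total counts) to 0.24 without DMSO 1, and ran from 0.15 to 0.24 over the libraries left out. The G2/M median ran from -0.0789 to 0.0794 over the libraries left out, so it had no fixed sign. The number of genes rising and falling over the whole table was 17 and 0, 104 and 34 with DESeq2, 160 and 61 with the likelihood ratio test, 185 and 70 with no filter, 0 rising with limma on either log2 FPKM scale, and 1 falling with library size only. It ran from 0 to 805 rising and from 0 to 471 falling over the libraries left out. The cause was not tested.

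With the replicate number as a block, 27 genes rose and 0 members were called. The numbers share no stated animal or day, and same-numbered libraries deviated in opposite ways (correlation -0.19). With crossed numbers, an alternative chosen after seeing the data, 445 of 13479 genes rose and 276 fell. Among them were 1 S phase gene called higher and 2 G2/M genes called lower. With library size only, the log2 fold changes of Mcm5 (-0.00448), Uhrf1 (-0.0411), Kif11 (-0.0168), Cenpa (-0.0183) and Cenpf (-0.0137) turned negative. Over the libraries left out, values crossed 0 for Mcm5 (-0.0360 to 0.13), Uhrf1 (-0.14 to 0.19), Mcm2 (-0.10 to 0.23), Dut (-0.22 to 0.41), Stmn1 (-0.76 to 0.29), Birc5 (-0.55 to 0.24), Mki67 (-0.13 to 0.27), Cenpa (-0.20 to 0.25), Cenpe (-0.19 to 0.0479), Bub1b (-0.22 to 0.14), Cenpf (-0.0221 to 0.0794), Ccna2 (-0.00315 to 0.22) and Kif11 (-0.0239 to 0.0709). The other 24 members kept their sign in all 16 alternatives. In the 150 bases before the start alone, E2F matches were in 21.4% of S phase promoters and CHR matches in 35.3% of G2/M promoters, against 2.59% and 8.17% of tested genes.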
